A study of Mus musculus with 319 samples.

Results

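The cytosolic ribosomal protein genes were followed across muscle of F2 mice. The members are all probes whose platform gene symbol begins with Rpl, Rps or Rplp and continues with a digit. The S6 kinase genes, whose symbols begin with Rps6k, and the gene Rps3 were left out. This rule found 181 probes of 47 genes, among 23382 probes and 11631 named genes in all. By their symbols 39 of these genes are core proteins of the ribosome, 29 of the large subunit and 10 of the small subunit. A further 6 symbols name pseudogenes, namely Rpl10a-ps2, Rpl12-ps1, Rpl21-ps15, Rpl36-ps8, Rps2-ps9 and Rps24-ps2. The other members are Rpl10l, a retrogene paralog of the X-linked Rpl10 known from testis, and Rps19bp1, which encodes a protein that binds Rps19 and is not itself part of the ribosome.

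Muscle RNA of each animal, labelled with Cy3, was hybridised against a common pool of all samples, labelled with Cy5, on 319 arrays. All animals were F2 mice of both sexes from a cross of C57BL/6J with C3H/HeJ, both parents were on the ApoE null background, and all ate the Western diet, which is high in fat, between 8 and 24 weeks of age. The labels name no control group, treatment, genotype class or batch, so the 319 arrays form 1 group in which each animal is a replicate. The series design speaks of 319 mice and the sample descriptions of 330. The sources used here name neither the muscle taken nor the dissection. Each value is a log2 ratio of the animal to the pool, so a value of 0 means the pool's level and no value is an absolute level.

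Ribosomal proteins assemble with ribosomal RNA into the small subunit, which reads the mRNA, and the large subunit, which joins the amino acids. Most of them are needed in equal amounts, and their mRNAs are abundant and change together with the growth of a cell. Many of their genes start transcription within a run of pyrimidines, the start of the 5′ terminal oligopyrimidine tract through which the mTOR pathway regulates their translation, and binding sites of ETS family factors are common in their promoters.

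Promoter sequences are shown for 8 core genes because later results rank the members by how closely they follow each other. The first 4 are the genes with a single listed start whose mean correlation with the other members was highest, and the last 4 those where it was lowest. Each runs 5′ to 3′ from 60 bases before the start of transcription to 20 bases from it, on the gene's own strand, from RefSeq on GRCm38.p6. Capitals mark the core of the ETS site (CTTCCG, or CGGAAG on the other strand) and a run of 6 or more C or T that lies within 5 bases of the start.
Rpl12, chr2:32961652-32961731, plus strand: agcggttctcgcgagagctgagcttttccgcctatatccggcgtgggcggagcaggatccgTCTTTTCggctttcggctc
Rpl13, chr8:123102290-123102369, plus strand: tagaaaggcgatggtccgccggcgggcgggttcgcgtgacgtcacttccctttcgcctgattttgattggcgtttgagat
Rpl41, chr10:128549149-128549228, minus strand: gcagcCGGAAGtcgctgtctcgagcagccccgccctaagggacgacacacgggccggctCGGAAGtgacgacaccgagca
Rps18, chr17:33955646-33955725, minus strand: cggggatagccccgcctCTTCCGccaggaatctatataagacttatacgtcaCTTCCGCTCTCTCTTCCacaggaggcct
Rps2, chr17:24720003-24720082, plus strand: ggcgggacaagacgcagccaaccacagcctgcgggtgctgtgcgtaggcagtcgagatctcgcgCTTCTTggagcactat
Rplp0, chr5:115559407-115559486, plus strand: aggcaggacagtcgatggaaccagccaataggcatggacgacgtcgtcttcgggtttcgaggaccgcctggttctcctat
Rpl15, chr14:18270967-18271046, minus strand: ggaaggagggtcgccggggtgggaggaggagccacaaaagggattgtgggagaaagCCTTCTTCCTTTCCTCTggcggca
Rps25, chr9:44407654-44407733, plus strand: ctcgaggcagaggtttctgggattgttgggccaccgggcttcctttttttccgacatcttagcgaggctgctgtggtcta

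The RefSeq table held 34 promoters of 29 core members, each from 250 bases before to 50 after the start. The ETS core was found in 21 of them (61.8%) and in 16.9% of all 32851 promoters of that length. The pyrimidine run at the start was found in 17 of them (50%) and in 20.2% of all promoters. Each motif was set beside the genes' mean correlation with the other members, and no test was made. That mean does not show how closely a gene followed a part of the members. The median of the genes' mean correlation with the other members was 0.306 over 19 genes with the ETS core and 0.310 over 8 without it. It was 0.289 over 15 genes with the pyrimidine run and 0.336 over 12 without it. A match is a description of letters in this window and not a binding site.

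The deposited table was close to complete, with 0.654% of its values missing. Per array, the log2 ratios had an SD of 0.213 at the least, 0.358 at the median and 1.08 at the most, and on 9 arrays the SD was more than 2 times that median. Arrays differed strongly in pattern. Their correlation across probes ranged from -0.601 to 0.848 over 50721 pairs, with a median of 0.270, and it was under -0.3 in 3735 pairs. The labels state which dye each RNA carried, and the direction of the ratio was read from Y-linked genes. Eif2s3y had a median log2 ratio of -5.62 on 164 arrays and of 1.08 on the other 155, where a pool with 155 of 319 equal portions from males gives 1.04. A positive value is therefore read as a higher share of that RNA in the animal. Ratios to a pool of the same tissue cannot show whether a tissue marker is present, so the muscle label could not be checked by level. Genes of slow muscle fibres varied together (mean pairwise r = 0.819 over 8 genes).

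Of the 181 member probes, 163 probes of 44 genes had a value on at least 80% of arrays and were tested, and 143 of them had a value on every array. The 18 probes left out (9.94%, against 0.821% of all probes) had values on 6 to 255 arrays. They included every probe of Rpl14, Rps12 and Rps29, which therefore have no result here. The tested set held 112 probes of 28 core genes of the large subunit, 35 probes of 8 core genes of the small subunit and 13 probes of the 6 pseudogene symbols. The 181 probes were spread unevenly, with 20 for Rpl29, 13 for Rps2 and 11 for Rpl9. Probe sequences were not used here. Ribosomal protein genes have many near-identical processed pseudogenes, so which copy a probe measured is uncertain for each member.

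As a set the members varied between animals about as much as other probes did. The median SD of the log2 ratio across arrays was 0.227 for the 163 member probes, with a range of 0.107 to 0.699, and 0.227 for all 23190 probes tested. Averaged over its probes, Rpl3, a protein of the catalytic centre of the large subunit, varied most. Its lowest, median and highest log2 ratios were -1.30, -0.39 and 1.10 (SD 0.419, n = 319). On the array of that lowest mean, the Rpl3 probe of steepest slope with the lymphocyte score described below lay at -0.66. The lowest value thus does not hold for each probe. Rpl3 lay under -0.5 on 103 arrays and over 0.5 on 23. Next by SD came Rps2-ps9, at -1.70, 0.02 and 0.82 (SD 0.380).

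The others of large spread had a long upper tail. Rpl38, a large subunit protein whose loss in mice alters the patterning of the skeleton, ranged from -0.69 to 1.97 around a median of -0.07 (SD 0.372). Rpl37a of the large subunit ranged from -0.70 to 1.82 around -0.11 (SD 0.343). Rps26, a small subunit protein near the exit of the mRNA channel, ranged from -0.68 to 1.84 around -0.04 (SD 0.336). Rpl12, which sits at the base of the stalk of the large subunit, ranged from -0.60 to 1.06 around -0.18 (SD 0.321). In all of these the highest array lay farther from the median than the lowest.

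The smallest spread was that of Rpl19, Rpl7 and Rplp1. Rpl19 stayed between -0.20 and 0.38 around 0.03 (SD 0.0748). Rpl7 stayed between -0.51 and 0.26 around 0.01 (SD 0.0930). Rplp1, which with Rplp2 forms the flexible part of the stalk that recruits translation factors, stayed between -0.37 and 0.32 around -0.01 (SD 0.0996). The other stalk genes were wider, but the number of probes differed. Rplp1 is a mean over 4 tested probes with a mean r of 0.070 between them. Rplp2 had 1 tested probe and Rplp0 had 2. Rplp2 ranged from -0.37 to 0.76 around -0.04 (SD 0.178), and Rplp0, which anchors both to the ribosome, from -0.78 to 0.38 around 0.00 (SD 0.143). Rpl10l had an SD of 0.166 and Rps19bp1 of 0.114.

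**Figure D1:**
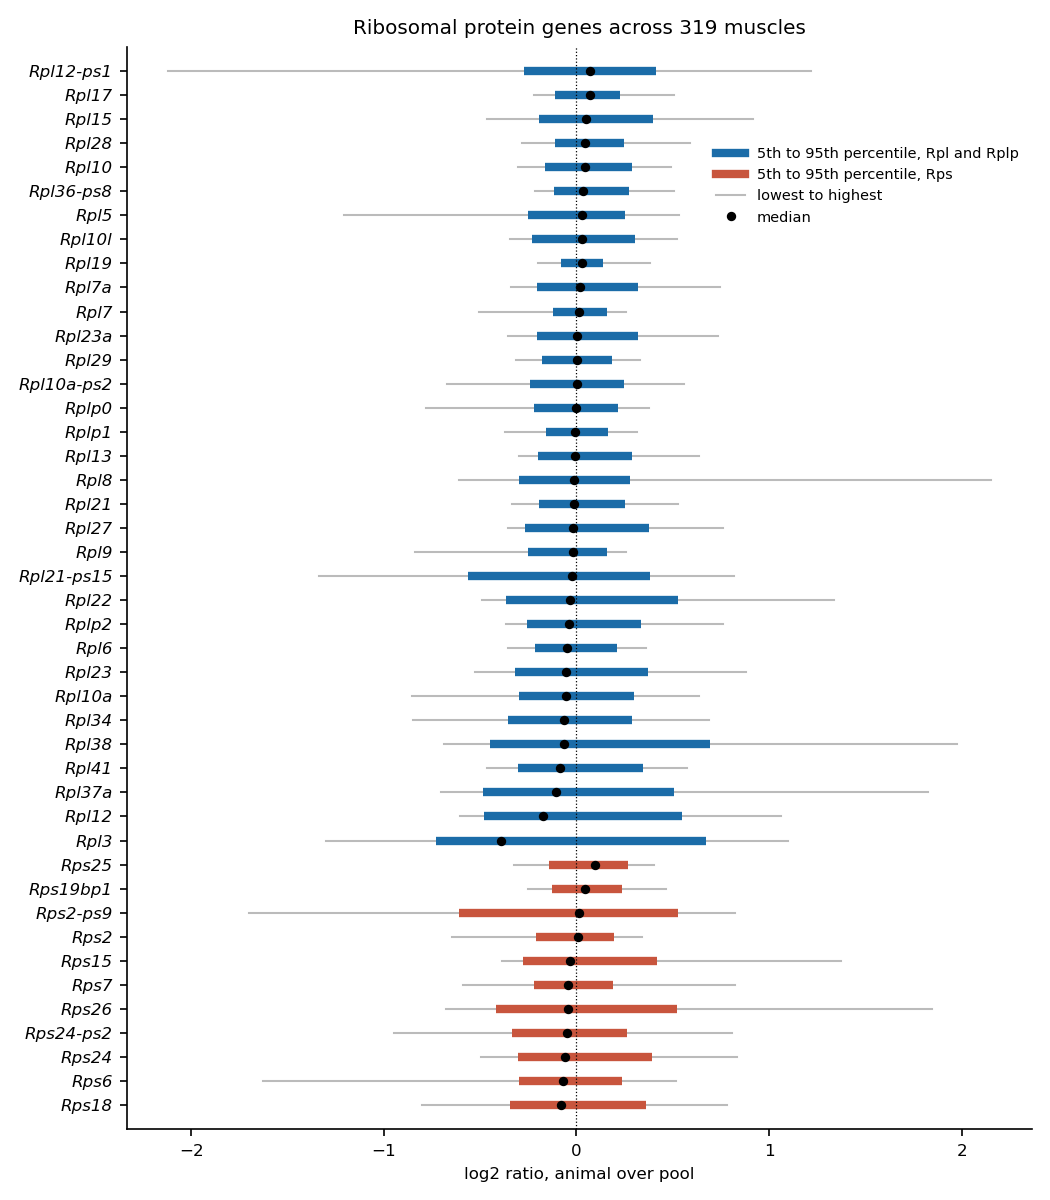
Log2 ratio to the pool for each of the 44 ribosomal protein genes with a tested probe, averaged over its probes, across 319 arrays; grey lines run from the lowest to the highest array, thick bars from the 5th to the 95th percentile (blue for Rpl and Rplp, red for Rps), and points mark the median. Rpl3 has the lowest median (-0.39), and Rpl19 has a narrow bar with all arrays between -0.20 and 0.38.

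The members varied together only in part. Over 946 pairs of genes the mean Pearson r across arrays was 0.221, against 0.00934 over all pairs of 11555 genes. It was over 0.5 in 202 pairs and below 0 in 248. The mean was 0.267 over core genes, 0.253 within the large subunit names (33 genes), 0.118 within the small subunit names (11 genes) and 0.189 between both. The small subunit names include pseudogenes and Rps19bp1. Over core genes alone the mean was 0.277 within the large subunit (28 genes), 0.177 within the small subunit (8 genes) and 0.261 between both. With the probe of largest SD taken for each gene in place of the mean of its probes, the mean over all members was 0.136, within the small subunit names 0.103 and between both 0.113, so an order of these means depends on how probes are joined. With the lymphocyte score described below taken out of every gene the mean over all members was 0.202. Arrays share the pool, and the genes share each array's quality, so these correlations are a description.

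Closest to the rest of the members were Rpl12 (mean r with the other members 0.408), Rpl13 (0.406), Rpl41 (0.391), Rps18 (0.376), Rpl21 (0.375) and Rpl10 (0.375). Rpl41 encodes a very short basic peptide of the ribosome, and Rpl10 one of the last proteins to join the large subunit. Farthest were Rps2-ps9 (-0.0544), Rpl12-ps1 (-0.0435), Rps25 (-0.0434), Rps19bp1 (0.0113), Rpl15 (0.0167) and Rpl5 (0.0247). Rps25 is a small subunit protein known for its part in initiation on viral RNAs. Rpl5 carries a small ribosomal RNA into the large subunit and binds the ubiquitin ligase Mdm2. Pseudogene symbols and the binding protein thus made up 3 of these 6, and core proteins the other 3.

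The pairs split the members into sets that ran against each other. The closest pairs were Rpl37a with Rps15 (r = 0.93), Rpl10 with its paralog Rpl10l (0.928), Rpl37a with Rpl38 (0.899), Rpl37a with Rps26 (0.896), Rpl38 with Rps15 (0.893) and Rpl22 with Rpl23a (0.879). The most opposed were Rpl3 with Rps25 (-0.653), Rpl15 with Rps6 (-0.651), Rpl7a with Rps24-ps2 (-0.538), Rpl17 with Rps24-ps2 (-0.524), Rpl15 with Rps24-ps2 (-0.520) and Rpl10a with Rpl15 (-0.520). Rps6 is the small subunit protein that S6 kinases phosphorylate. Across the gap in the lymphocyte score described below, the pair of Rpl3 and Rps25 had r = -0.572 on the 56 arrays above it and -0.247 on the 263 below it. The pair of Rpl15 and Rps6 had r = -0.797 above it and -0.499 below it, and the 6 closest pairs had r between 0.854 and 0.933 on both sides. The first axis of variation of the member probes held 27.3% of their variance, the second 25.7% and the next 7.0%. The second axis had r = 0.924 with the first principal component of all probes, which held 21.1% of the variance of the whole table.

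**Figure D2:**
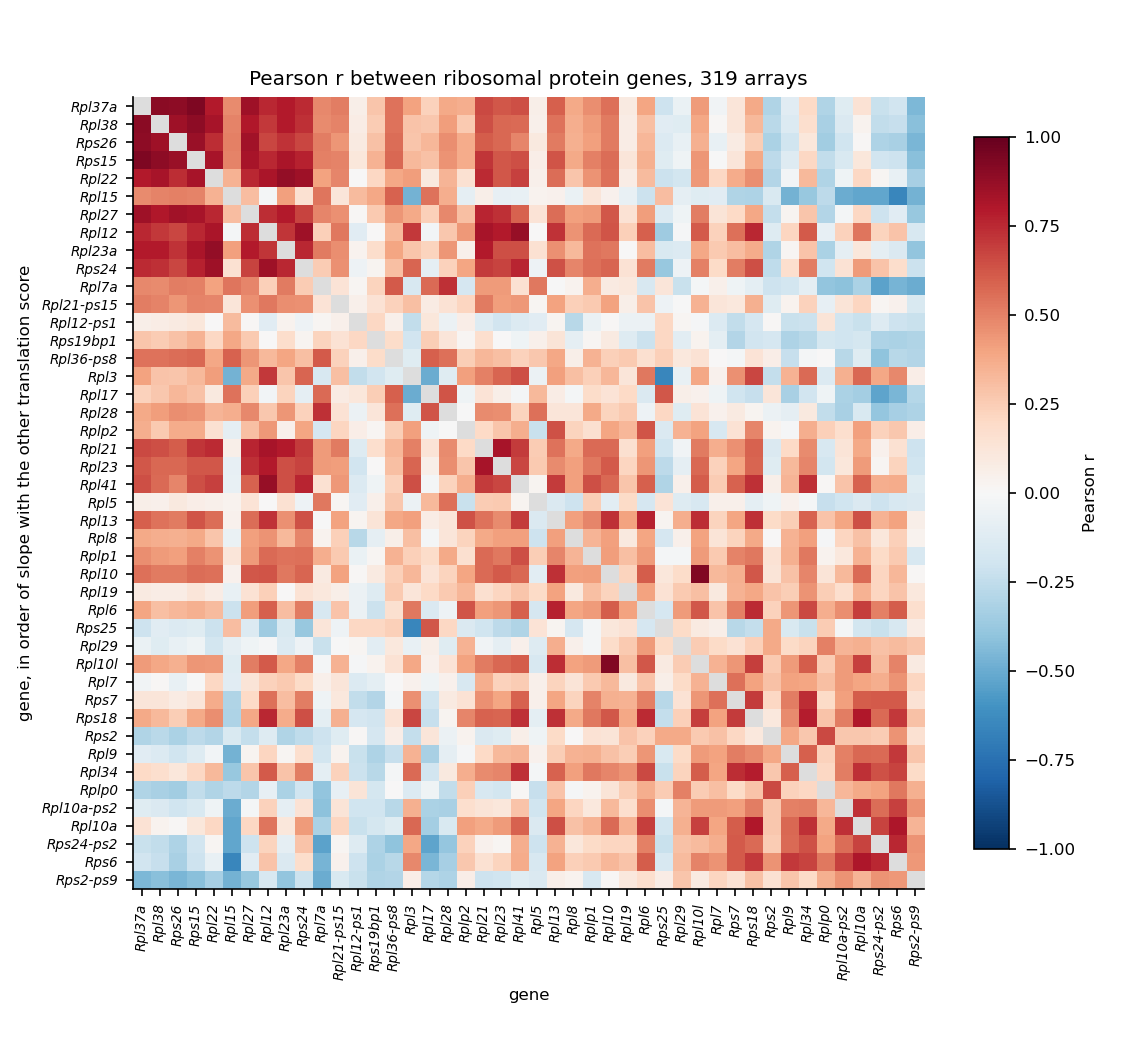
Pearson correlation across 319 arrays for each pair of the 44 ribosomal protein genes, coloured from blue (negative) to red (positive), with genes in order of their slope with the score of other translation genes, from most negative to most positive. A red block at the upper left holds Rpl37a, Rpl38, Rps26 and Rps15 (r up to 0.93), and Rpl15 is blue against Rps6 and Rps24-ps2 at the other end (r = -0.651 and -0.520).

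The first comparison asked whether the members moved with RNA of immune cells. The score was the mean of the standardised log2 ratios of 11 lymphocyte markers, of 13 listed, and limma fitted every probe on it. A gap parted 56 arrays of high score from 263 of low score, and the group means lay 7.70 within-group SDs apart. The mean log2 ratio of the markers ran from -0.09 to 2.03 (median 1.00) on the 56 arrays above the gap and from -2.48 to -0.64 (median -1.88) on the 263 below it. Of 163 member probes 92 rose with the score and 33 fell (adjusted p under 0.05, limma with Benjamini-Hochberg over all probes). Over all probes 23.4% rose and 51.9% fell. With probes of a gene averaged, 29 of 44 genes rose and 8 fell, while over all genes 25.1% rose and 51.2% fell. The median slope per SD of the score was 0.062 log2 units for the members and -0.029 for all probes. In whole muscle, more or fewer cells of a type and more or less RNA per cell cannot be told apart.

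Rpl3 and Rpl12 had the steepest slopes. Rpl3 had lowest, median and highest log2 ratios of -0.30, 0.45 and 1.10 on the 56 arrays above the gap, against -1.30, -0.45 and 0.12 on the 263 below it. Rpl12 had -0.19, 0.38 and 1.06 above the gap, against -0.60, -0.23 and 0.67 below it. The ranges overlapped for both genes, and the median of each group lay outside the other group's range for Rpl3 only. Per SD of the score Rpl3 rose by 0.356 ± 0.0124 (SE, n = 319, adjusted p = 7.49e-89, limma), Rpl12 by 0.249 ± 0.0114 (adjusted p = 3.68e-64) and Rpl37a by 0.202 ± 0.0159 (adjusted p = 6.66e-29). The probe of Rpl3 with the steepest slope ran from -0.53 to 1.77 (median 0.82) above the gap and from -1.52 to 0.08 (median -0.74) below it.

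Other members with higher medians above the gap were Rps18 (0.22 above, -0.11 below), Rps24 (0.21 above, -0.10 below), Rpl41 (0.19 above, -0.11 below) and Rpl13 (0.12 above, -0.03 below). Rps25 went the other way, with lowest, median and highest values of -0.32, -0.09 and 0.13 above the gap, against -0.16, 0.12 and 0.41 below it. Its slope was -0.0764 ± 0.00574 (adjusted p = 2.09e-31, limma). Rps2, which lies near the entry of the mRNA channel, had a slope of -0.0475 ± 0.00709 (adjusted p = 2.68e-10) and Rpl15 of -0.0441 ± 0.0107 (adjusted p = 8.33e-05). Each side of the gap holds fewer arrays, and these genes differed there. Rps25 had no call on either side, and its slopes kept their direction (-0.042 above and -0.026 below). The probe of Rpl15 had no call above the gap (slope 0.015) and rose below it (0.263). Of 13 probes of Rps2 none was called above the gap, and below it 2 rose and 4 fell. The mean of the Rps2 probes had r = -0.210 with the score above the gap and -0.119 below it.

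Within the large subunit 67 of 112 core probes rose and 21 fell with the lymphocyte score, and within the small subunit 17 of 35 rose and 11 fell. Of 13 pseudogene probes 6 rose and 1 fell. Within each side of the gap the pattern was not the same. On the 56 arrays above it 59 member probes rose and 1 fell (all probes 9.45% and 8.49%). On the 263 below it 78 rose and 40 fell (all probes 33.1% and 29.1%). Of the 92 probes that rose over all arrays 54 rose below the gap and 17 fell, and of the 33 that fell 11 fell there and 9 rose. All 59 probes that rose above the gap had risen over all arrays too. Rpl12 followed the score on both sides (r = 0.70 above, 0.37 below). The mean of the Rpl3 probes followed it above the gap (0.569) and hardly below it (0.0909). The probe of Rpl3 with the steepest slope had r = 0.700 above the gap and 0.352 below it, so this contrast with Rpl12 depends on how probes are joined. All 7 probes of Rpl12 and all 7 of Rpl41 rose on each side.

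**Figure D3:**
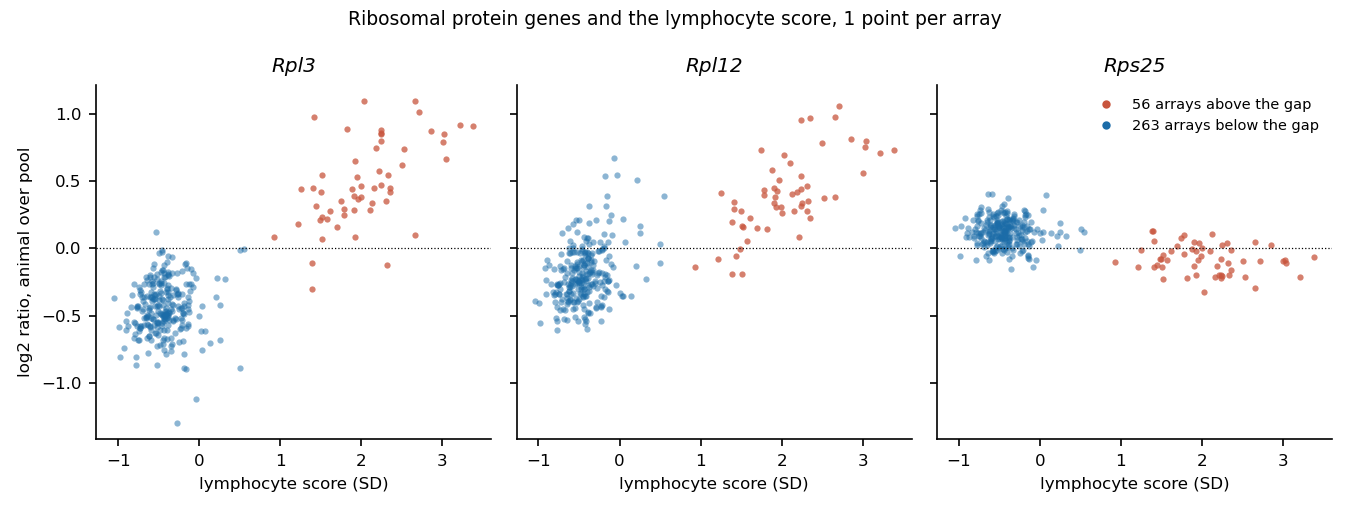
Log2 ratio of Rpl3, Rpl12 and Rps25 against the lymphocyte score (SD units), with 1 point per array, the 56 arrays above the gap in red and the 263 below it in blue. Rpl3 and Rpl12 lie higher above the gap (medians 0.45 and 0.38), and Rps25 lies lower there (median -0.09).

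Markers of other cells moved across the same gap. The mean log2 ratio of 13 of 15 macrophage markers ran from -0.35 to 1.61 (median 0.57) above the gap and from -1.48 to 0.60 (median -0.54) below it. For 5 of 9 adipocyte markers the range was -1.65 to 0.92 (median 0.21) above it and -1.88 to 0.64 (median -0.60) below it. For 9 of 10 cell cycle genes it was -0.12 to 1.35 (median 0.26) above it and -0.77 to 0.56 (median -0.36) below it. Neutrophil markers (7 of 7) had medians of -0.25 above and -1.51 below, keratinocyte markers (6 of 7) of -0.33 and -0.54, and erythroid markers (4 of 4) of -0.24 and -0.19. The part of these cells in the members' values was not tested.

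With the macrophage score 83 member probes rose and 52 fell, while over all probes 21.7% rose and 53.1% fell. By gene 26 rose and 13 fell (all genes 24.6% and 51.7%). Rpl3 (slope 0.330), Rpl12 (0.164) and Rpl37a (0.133) led the higher members, and Rps25 (-0.0843), Rps2 (-0.0610) and Rplp0 (-0.0547) the lower ones. With the adipocyte score 53 rose and 44 fell, while over all probes 20.2% rose and 50.8% fell. By gene 12 rose and 13 fell (all genes 23.5% and 49.9%). Rpl3 (0.251), Rpl12 (0.0880) and Rpl37a (0.0628) were again highest, and Rps25 (-0.0809), Rpl15 (-0.0647) and Rpl12-ps1 (-0.0524) lowest. After each array's median was subtracted the counts were 93 and 24 for the macrophage score and 86 and 22 for the adipocyte score. Shares over all probes were not counted under that setting. With the macrophage score the median slope there was 0.0557 for the members and -0.00657 for all probes. With the adipocyte score it was 0.0348 and -0.00579.

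Both patterns changed with the lymphocyte score in the model and below its gap. What they depended on was not tested. The macrophage score had r = 0.746, and the adipocyte score 0.486, with the lymphocyte score. With that score in the model 4 member probes rose and 65 fell with the macrophage score (all probes 14.3% and 34.6%), and 10 rose and 84 fell with the adipocyte score (17.3% and 39.3%). Among the 263 arrays below that score's gap the counts were 4 and 72 for the macrophage score (13.1% and 29.9%) and 4 and 55 for the adipocyte score (13.7% and 31.6%). With the lymphocyte score in the model, 22 of the 83 probes that had risen with the macrophage score fell, as did 17 of the 53 that had risen with the adipocyte score. The probes of Rpl12 turned from 7 higher with the macrophage score to 4 lower with the lymphocyte score in the model, and from 7 higher with the adipocyte score to 7 lower. Of the 7 probes of Rpl3, 4 rose in each of these fits and none fell.

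With the slow fibre score, built from 8 of 9 listed genes of slow-twitch fibres such as slow troponins, 63 member probes rose and 1 fell, while over all probes 8.4% rose and 8.81% fell. By gene 21 rose and 1 fell (all genes 7.91% and 10.2%). The calls came from 23 genes with a higher probe and 1 with a lower probe, and no gene had probes called both ways. In the large subunit 49 of 112 core probes rose and 1 fell, in the small subunit 11 of 35 rose and none fell, and of 13 pseudogene probes 1 rose. The median slope was 0.028 log2 units per SD for the members and 0.000297 for all probes. The slopes were small beside the spread between animals.

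Averaged over probes, Rpl38 rose by 0.0682 ± 0.0205 per SD (SE, n = 319, adjusted p = 0.00864, limma), Rpl37a by 0.0660 ± 0.0191 (adjusted p = 0.00606) and Rpl12 by 0.0582 ± 0.0177 (adjusted p = 0.0095). Rpl17 was the member that fell, by 0.0178 ± 0.00597 per SD (adjusted p = 0.0215). The means of the narrow genes Rpl7 (slope 0.0203, adjusted p = 0.0014) and Rplp1 (slope 0.0165, adjusted p = 0.0229) rose too. Of the 4 tested probes of each, 0 were called. Their slopes ran from 0.0053 to 0.0464 for Rpl7 and from 0.0014 to 0.0244 for Rplp1. The steepest member probe was one of Rpl23a, at 0.111 ± 0.0226 (adjusted p = 4.51e-05). All 7 probes of Rpl12 and all 7 of Rpl41 rose.

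This pattern held beside the lymphocyte score. With that score in the model 74 member probes rose and 1 fell (all probes 9.58% and 10.4%), and over the 263 arrays below that score's gap 78 rose and 2 fell (11.4% and 12.3%). Over 319 arrays the slow fibre score had r = 0.0180 with the score of extracellular matrix genes, 0.176 with respiratory chain genes, -0.128 with glycolysis genes, 0.125 with adipocyte markers and -0.180 with animal number. The score of keratinocyte markers fell in clusters, and its r with the slow fibre score was -0.169 on the 32 arrays above its gap and 0.155 on the 287 below it. Its r with the mean of the standardised members was -0.291 above that gap and 0.314 below it. The mean of the 8 slow fibre genes had a median of -0.49 above the lymphocyte gap and of -0.29 below it. The part of other genes in the members' slopes was not tested.

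**Figure D4:**
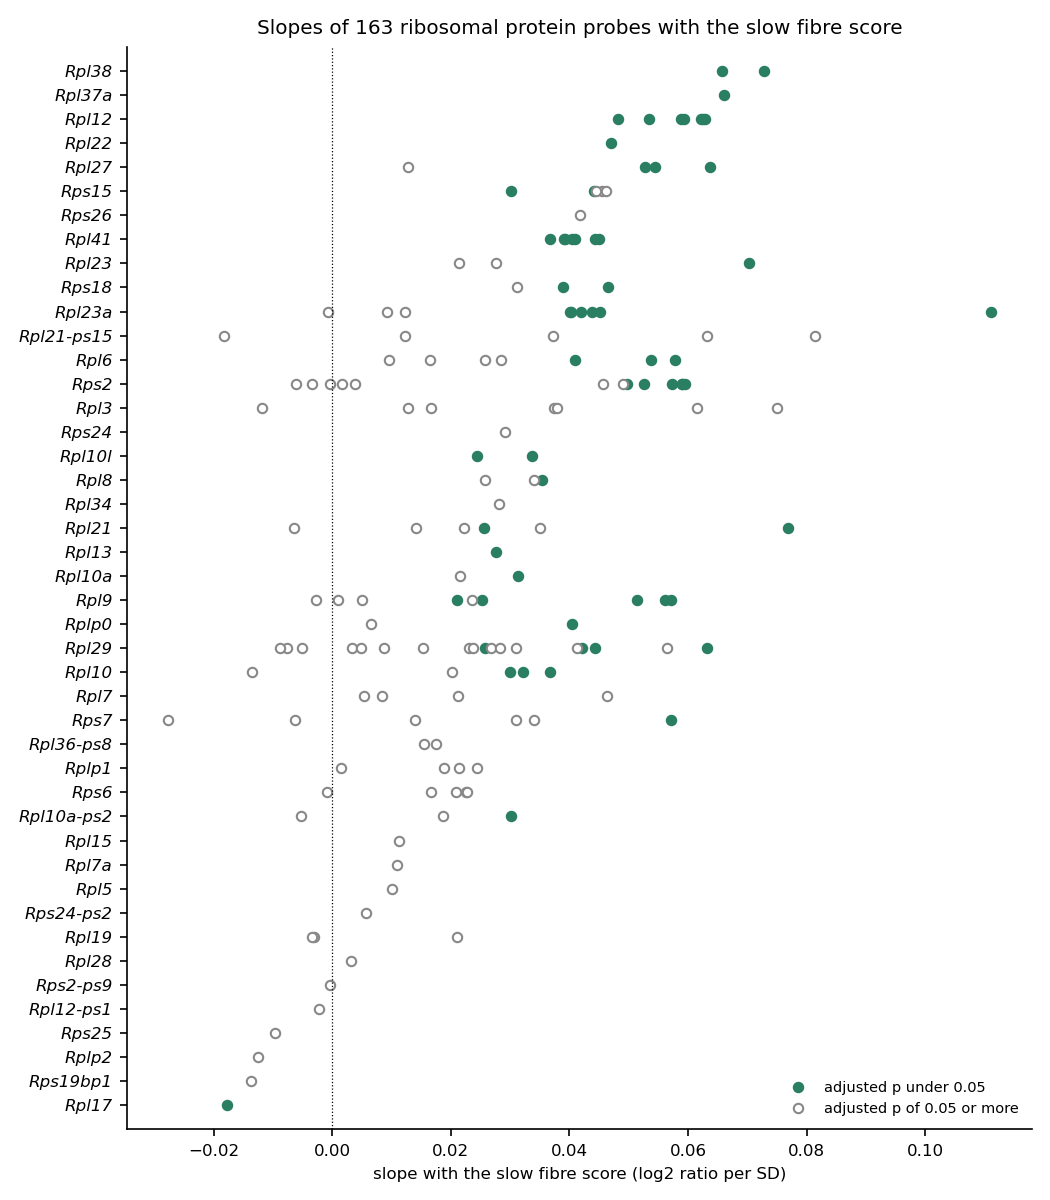
Slope of each of the 163 member probes with the slow fibre score (log2 ratio per SD), 1 line per gene in order of the slope of the gene's mean; filled points are probes with an adjusted p under 0.05 and open points the others. Filled points lie to the right of 0 for all genes that have one except Rpl17, and all 7 probes of Rpl12 and of Rpl41 are filled.

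Related lists were set beside the members for the slow fibre score. Of 55 probes of other translation genes 10 rose and 3 fell, led by Eef1b2, a subunit of the exchange factor of elongation (slope 0.0760 ± 0.0130, adjusted p = 6.5e-07, limma), with Eef2, the translocation factor, lowest (-0.0379). Of 28 probes of ribosome assembly genes 1 rose and 3 fell. Of 17 probes of mTOR pathway genes none rose and 4 fell, with Rictor lowest (-0.160). Of 36 probes of mitochondrial ribosomal protein genes 5 rose and 2 fell. Of 33 proteasome probes none rose and 2 fell. Whether the members differ from these lists was not tested.

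With the lymphocyte score, with which 23.4% of all probes rose and 51.9% fell, the lists of other translation and ribosome assembly genes were close to those shares. Other translation genes had 13 higher (23.6%) and 30 lower probes (54.5%), with Pabpc1, the poly(A) binding protein, highest (0.273) and Eif4e, the cap binding factor, lowest (-0.166). Ribosome assembly genes had 5 higher (17.9%) and 14 lower (50%), with Nop58 highest (0.130) and Ncl, nucleolin, lowest (-0.145). The mTOR list had 1 higher and 11 lower, and the higher one was Myc (0.202). Mitochondrial ribosomal protein probes had none higher and 31 lower, with Mrpl37 lowest (-0.176). Proteasome probes had 1 higher and 28 lower.

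Calls with the score of other translation genes came at about the share of all probes, in both directions. The score averaged 26 initiation, elongation and related factors, whose mean pairwise r was 0.202. It had r = -0.691 with the first principal component of all probes and -0.763 with the second axis of the member probes. With this score 62 member probes rose and 71 fell, while over all probes 35.3% rose and 41.6% fell. By gene 17 rose and 18 fell (all genes 33.5% and 43.2%). Which direction held more calls turned under 7 of 10 other settings, so no balance is read from it. Of the 27 genes with more than 1 tested probe 18 had probes called both ways. The share over other genes was not counted. The higher set was led by Rps2-ps9 (slope 0.196 ± 0.0183, adjusted p = 2.25e-22, limma), Rps6 (0.146 ± 0.00811, adjusted p = 5.48e-49) and Rps24-ps2 (0.114 ± 0.00933, adjusted p = 1.04e-27). The lower set was led by Rpl37a (-0.215 ± 0.0158, adjusted p = 2.07e-32), Rpl38 (-0.213 ± 0.0171, adjusted p = 2.19e-28) and Rps26 (-0.211 ± 0.0151, adjusted p = 1.52e-33). Large subunit core probes fell in 53 cases and rose in 34, and small subunit core probes fell in 11 and rose in 21.

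A few arrays stood apart on this score. A gap left 303 arrays above it and 16 below it, 4.69 within-group SDs apart. Rpl37a had lowest, median and highest log2 ratios of -0.70, -0.13 and 0.70 on the 303 arrays, against -0.11, 0.76 and 1.82 on the 16. Rps26 had -0.68, -0.06 and 0.80 on the 303, against -0.18, 0.81 and 1.84 on the 16. Rps6 had -0.45, -0.05 and 0.51 on the 303, against -1.63, -0.40 and 0.04 on the 16. The groups overlapped for all of these. By their medians 24 of the 44 genes were higher on the 16 arrays and 20 were lower. The share over all genes was not counted, so this is not read as a trait of the members. Among the 16 arrays 4 had an outlying SD, against 5 of the 303, and the median array SD was 0.355 on the 303 and 0.558 on the 16. Their scores on the first principal component ran from -1.98 to 2.48 on the 303 and from 0.425 to 5.86 on the 16. The part of array quality in this split was not tested.

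On the 303 arrays alone 65 member probes rose and 29 fell with the score (all probes 29.7% and 23.5%). With the first principal component removed from all probes 83 rose and 33 fell (47.7% and 22.5%). Rpl37a and Rps26 stayed among the lower and Rps2-ps9 among the higher probes in both of these fits. For Rps2, 8 of 13 probes rose on the 303 arrays and none fell.

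**Figure D5:**
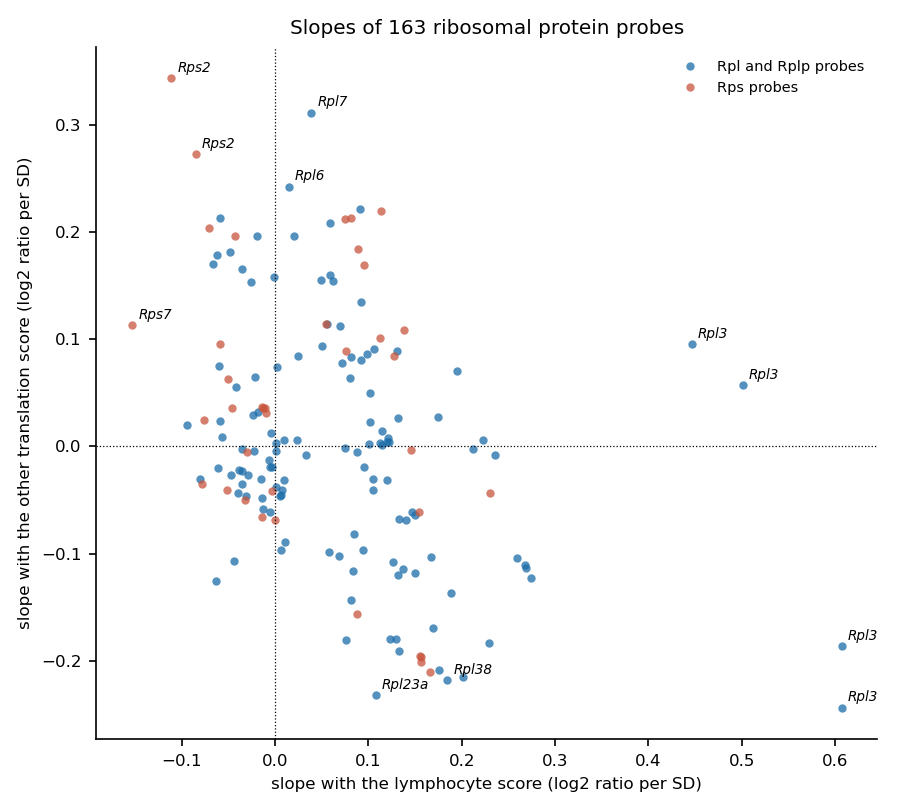
Slope of each of the 163 member probes with the score of other translation genes (vertical axis) against its slope with the lymphocyte score (horizontal axis), both as log2 ratio per SD, Rpl and Rplp probes in blue and Rps probes in red. Probes lie on both sides of 0 on the vertical axis (62 rose, 71 fell) and mostly to the right of 0 on the horizontal axis (92 rose, 33 fell), with 4 probes of Rpl3 farthest right.

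With the score of mitochondrial ribosomal protein genes, the proteins of the separate ribosome of mitochondria, 46 member probes rose and 80 fell, while over all probes 52.1% rose and 23.1% fell. By gene 11 rose and 27 fell (all genes 50.8% and 26%). Rpl15 (slope 0.0817), Rps25 (0.0768) and Rpl5 (0.0544) were highest, and Rpl3 (-0.323), Rpl12 (-0.148) and Rps18 (-0.0904) lowest. After each array's median was subtracted 26 rose and 100 fell (median slope -0.0508, and 0.00582 over all probes, whose shares were not counted). With the lymphocyte score in the model the balance turned, with 94 higher and 32 lower (all probes 41.3% and 29.6%) and 42 of the 80 lower probes now higher, and over the 263 arrays below that score's gap 91 rose and 12 fell (34.9% and 22.7%). All 7 probes of Rpl12 turned from lower to higher with the lymphocyte score in the model, and 6 of the 7 probes of Rpl3 stayed lower. The mitochondrial score had r = -0.73 with the lymphocyte score.

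Several probes of the same gene often gave different answers. Over 27 member genes with more than 1 tested probe the median correlation between probes was 0.315, against 0.160 over 1265 other genes. It was over 0.5 for 8 of the 27 (29.6%, against 20.5% of the others) and below 0 for 3 (11.1%, against 30.0%). The highest were Rpl38 (0.976), Rpl12 (0.936) and Rpl41 (0.935), and the lowest Rplp0 (-0.220), Rpl19 (-0.187) and Rpl7 (-0.0733). The spread was visible in the fits. For the 7 probes of Rpl3 the slope with the lymphocyte score ran from 0.000795 to 0.607. For Rps7 it ran from -0.154 to 0.230. With the other translation score the probes of Rpl6 ran from -0.191 to 0.242 and those of Rpl7 from -0.058 to 0.311. With the lymphocyte score 10 genes had probes called both ways, and with the macrophage score 11. With the adipocyte score it was 8, with the mitochondrial score 11 and with animal number 6. These counts are of the 27 genes, and the share over other genes was not counted. A gene mean over probes that disagree describes no 1 transcript. The small spread of Rpl19, Rpl7 and Rplp1 is that of a mean over probes that followed each other little or not at all.

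An F2 cross gives genotype classes in shares of 1:2:1 at each locus, so each probe was checked for a distribution with 3 such classes. Of 163 member probes 1 had it, while over all probes it was 0.379% (88 of 23190). The member was a probe of Rpl21-ps15, with lowest, median and highest log2 ratios of -1.98, -0.02 and 1.26 (SD 0.699). The BIC improved by 30.0 and the components lay 3.42 SDs apart, just over the 3 SDs required. The labels give no genotype, so the classes are only a shape.

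Animal numbers, which the labels give from 1 to 359 and do not tie to a date or batch, were used to look for a trend. Over 100 animals 14 member probes rose and 26 fell, while over all probes 18.9% rose and 11.8% fell. By gene 5 rose and 6 fell (all genes 19.3% and 12.9%). Rps25 (slope 0.0384, adjusted p = 6.28e-07, limma), Rpl10l (0.0322, adjusted p = 0.00219) and Rps19bp1 (0.0219, adjusted p = 0.00265) had the highest slopes of the genes called. Rpl3 (-0.0803, adjusted p = 0.00246), Rpl6 (-0.0422, adjusted p = 3.91e-08) and Rplp2 (-0.0295, adjusted p = 0.0098) had the lowest of the genes called. The probes of Rpl6 disagreed: of 7 tested, 2 fell and 1 rose, with slopes from -0.125 to 0.0219. After each array's median was subtracted 9 member probes rose and 37 fell (median slope -0.0152, and -0.000278 over all probes, whose shares were not counted). With the lymphocyte score in the model 12 rose and 11 fell (all probes 7.9% and 6.17%). Of these, 7 had risen and 11 had fallen without that score, and no probe of Rpl3 was called in that fit. Rps25 was still called.

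The genes outside the members that followed them most closely were ranked by the correlation with the ribosomal protein score, the mean of the standardised members, over 319 arrays. The score ran from -2.82 to 3.64 with a median of -0.0803. The closest were Eef1b2 (r = 0.849), Ly6g6c (0.829), Reg3d (0.758), Gm4986 (0.730), Gm11517 (0.716), Gm5779 (0.676), SGPP2 (0.673), Fau (0.665), Vmn1r235 (0.662) and Dleu2 (0.653). Fau encodes a ubiquitin-like protein fused to a ribosomal protein of the small subunit, outside the symbol rule. Most opposed were Pcnx (-0.776), Zfp423 (-0.699), Wnk1 (-0.697), Slc45a4 (-0.692) and Sox13 (-0.689). In all 159 genes had r over 0.5 and 236 under -0.5, around a median of -0.0329. Within the 56 arrays above the lymphocyte gap Eef1b2 had r = 0.869 and Ly6g6c 0.72, and within the 263 below it 0.787 and 0.809, so both stayed close on either side. Pcnx had -0.707 above the gap and -0.714 below it. The lists as a whole were less close. Lymphocyte markers had a median r of 0.52 on the 56 arrays above the lymphocyte gap (11 of 11 positive) and 0.149 on the 263 below it (8 of 11). Macrophage markers had 0.213 above it (12 of 13) and -0.362 below it (1 of 13). Over all arrays the other translation genes had a median r of -0.0851 (10 of 26 positive), from Eef1b2 and Eif3h (0.546) to Eef1d (-0.308). The mTOR list had -0.191 (4 of 14 positive), from Tsc1 (0.34) and Mlst8 (0.333) to Eef2k (-0.503). Mitochondrial ribosomal protein genes had -0.131 (11 of 30 positive), from Mrps21 (0.359) and Mrpl23 (0.351) to Mrpl10 (-0.568). Ribosome assembly genes had 0.043 (11 of 18 positive), from Polr1e (0.446) and Nop58 (0.444) to Bysl (-0.422). Slow fibre genes had 0.241 (8 of 8 positive), led by Myl2 (0.30) and Tnnc1 (0.27). Glycolysis genes lay farther from 0, at -0.364 (0 of 7 positive), with -0.23 above the lymphocyte gap and -0.10 below it. Cell cycle genes had 0.328 (8 of 9 positive), with 0.273 above that gap and -0.091 below it. Rps3, left out by the rule, had r = 0.628. These values are a ranking over arrays that share the pool, and no test was made of them. Probe sequences were not used, so which transcript the probes of the ranked genes measured is uncertain too.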

How the data were processed

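Per the labels, each array compared an animal's RNA (Cy3) with a common pool (Cy5). The authors' deposited values are log10 ratios limited at -2 and 2, which is a 100-fold ratio. The base of the logarithm was read from these limits. Of the member values 4, in 3 probes, lay at them. The sources used here do not give how the authors corrected, normalised and limited the values. The log10 ratios were converted to log2, with no further normalization, and blanks were kept as missing. Symbols came from the platform annotation (13639 probes with 1 symbol, 48 with several, 9695 with none). RefSeq held 46 of 50 member gene IDs. A further 9 probes with several symbols, of which a member was 1, were not used. The number 227 appears on a pair of arrays (r = 0.535, against 0.613 and 0.723 with their closest arrays), and both were kept. For a sample whose title and source name gave different numbers, the source name was used.

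Testing was limited to probes measured on 80% of arrays or more. List scores were means of standardised genes, with probes of a gene averaged. limma (lmFit and eBayes) fitted each probe on a score in SD units or on animal number per 100 animals, with Benjamini-Hochberg adjustment over 23190 probes and a threshold of 0.05. A score was split where the sum of squares between the sides was largest, with at least 15 arrays a side, and sides over 4 within-group SDs apart were called parted by a gap. The 3-class model used normal components of weights 1:2:1, a BIC gain over 10 and a spacing over 3 SDs. The fits were tested on simulated data. The members, lists and tests were chosen with earlier results of these data known. Genes were named by rank: highest and lowest mean correlation, SD, slope in each fit and correlation between probes, the stalk genes and the relatives that are not core proteins. Genes outside the members were named by their correlation with the members' mean, except marker genes of clustered scores. Probes given as examples of disagreement (Rps7 among them), the other genes given by side of a gap and the extremes of the related lists were chosen after their values were seen. The number of arrays limits the precision. Python 3.11.15, numpy 2.4.6, pandas 2.3.3, R 4.3.3 and limma 3.58.1 were used.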

Additional observations from a re-analysis of the deposited data

How the results depend on the processing

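By the number of calls in both directions together, or the spread for a correlation, 107 of 125 alternative values stayed within their limit (1.5 times a count) and 18 moved. The 18 include each fit on averaged probes, where at most 44 calls were possible, so this number does not measure stability. It does not show direction either, and the direction that held more calls turned for several fits. Animal number gave 40 calls over all arrays (14 higher, 26 lower), 23 with the lymphocyte score in the model (12 and 11, with 18 shared in direction) and 26 below its gap. The lymphocyte score gave 125 calls, and 60 above its gap. The macrophage score gave 135 calls (83 and 52), 69 with the lymphocyte score in the model (4 and 65) and 76 below its gap (4 and 72). The adipocyte score gave 97 calls (53 and 44), 94 with the lymphocyte score in the model (10 and 84) and 59 below its gap (4 and 55), and over probes measured on every array 39 and 43. The mitochondrial score gave 46 and 80, and 94 and 32 with the lymphocyte score in the model. The slow fibre and lymphocyte scores kept more higher than lower calls under all 9 settings run for each. With probes of a gene averaged, the calls among 44 genes were 11 for animal number, 37 lymphocyte, 39 macrophage, 22 slow fibre, 25 adipocyte, 38 mitochondrial and 35 other translation, where fewer tests were made. The 1 probe with 3 classes became 0 after quantile normalization and with a spacing over 4 SDs, 2 with the first component removed, 2 without the arrays of outlying SD, and 3 with the lymphocyte score in the model. The cause was not tested. Fits below the lymphocyte gap (except that of its own score), above the other translation gap and on averaged probes were chosen after seeing the data. No paired analysis was possible because all arrays form 1 group. Values close to background cannot be told from the ratios, since no intensities were used here.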
